A study of Mus musculus with 8 samples.

Results

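The STAT transcription factors (signal transducers and activators of transcription) were examined in mouse lung neutrophils 24 h after instillation of *Streptococcus pneumoniae* (SP) or phosphate-buffered saline (PBS). The 6 members described are *Stat2*, *Stat3*, *Stat4*, *Stat5a*, *Stat5b* and *Stat6*, chosen by gene symbol out of 19836 genes with a symbol. No cut on their values was applied, but these members were chosen with earlier results of these data known. Each was represented by 1 row of the expression table, and no row had to be chosen among several. The mice of both groups were wild type (WT), aged 6-12 weeks per the labels, and the methods describe them as female C57BL/6J. Each mouse received PBS or bacteria through the trachea, aimed at the left lung, in a volume of 2.3 µl for every g it weighed, without a genetic or drug perturbation in either group. Neutrophils were taken from digested lungs by Ly6G, a neutrophil surface marker, on magnetic columns, and 4 samples of each group were profiled on Affymetrix Mouse Gene 1.1 ST arrays, 1 array a sample. The study's text describes each sample as coming from a mouse, which the labels do not repeat. Per the methods, purity was judged on stained cells only in the SP group.

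STAT proteins carry signals from cytokine receptors to the nucleus. A cytokine brings Janus kinases (JAKs) together on its receptor, the kinases phosphorylate the receptor tail and the STAT proteins that dock there, and the phosphorylated STATs pair and bind DNA. STAT2 works mainly in the interferon-activated complex with IRF9, which binds the interferon-stimulated response element (ISRE). The other members mostly bind gamma-activated sites (GAS) as pairs. In neutrophils, STAT3 is best known as the transducer of granulocyte colony-stimulating factor, and STAT5 as that of granulocyte-macrophage colony-stimulating factor. STAT activity is set by phosphorylation, which an expression array does not measure. In bulk samples, fewer cells of a type and less RNA per cell cannot be told apart.

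Promoter sequences of the members were read from RefSeq (assembly GRCm38.p6) as windows of 300 bases, 250 before and 50 after each annotated start site, and all 6 members had at least 1 window, 9 in all. They were searched on both strands for GAS as TTCNNNGAA and for ISRE as GAAA, any 2 bases and GAAA again. No window held the GAS letters, which 8.30% of all 32851 windows hold, and 2 windows held the ISRE letters, which 3.44% of all windows hold. The windows shown are those with a match. Capitals mark the match, and positions count from the start site. That of *Stat2* lies at chr10:128270248-128270547 on the plus strand, and its match starts at base -222 and reads as the ISRE on the minus strand. That of *Stat4* lies at chr1:52007990-52008289 on the plus strand, is the second of 2 annotated windows of the gene, and has its match at base -97.
*Stat2*: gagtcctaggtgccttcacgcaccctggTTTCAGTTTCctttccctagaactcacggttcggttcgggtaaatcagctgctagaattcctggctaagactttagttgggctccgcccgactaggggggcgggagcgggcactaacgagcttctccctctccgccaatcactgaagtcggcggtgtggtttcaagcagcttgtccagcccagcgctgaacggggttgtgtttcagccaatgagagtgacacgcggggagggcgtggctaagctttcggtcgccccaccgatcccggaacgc
*Stat4*: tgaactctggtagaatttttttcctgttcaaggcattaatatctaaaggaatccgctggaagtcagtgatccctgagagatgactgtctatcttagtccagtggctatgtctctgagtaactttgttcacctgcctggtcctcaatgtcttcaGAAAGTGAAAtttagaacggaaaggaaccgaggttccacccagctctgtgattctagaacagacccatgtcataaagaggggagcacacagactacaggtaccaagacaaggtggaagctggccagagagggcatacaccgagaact
A match is a description of the letters and no evidence of binding, and which of its start sites the array row of *Stat4* belongs to was not determined.

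*Stat2* stood apart from the other members, with a higher level in every SP sample than in any PBS sample and a difference of nearly 3 log2 units. *Stat5a* was higher in SP, too, by less than 2-fold. *Stat4* had a lower mean in SP with a spread that left it short of the threshold. *Stat3*, *Stat5b* and *Stat6* had smaller differences that did not pass it either. All values below are log2 expression values or, where so called, log2 differences of SP minus PBS. A row was called where the adjusted p of limma was at most 0.05 (Benjamini-Hochberg over all 24625 rows). By that rule 2 of 6 members were called, both higher in SP, beside 44.1% of all rows called, 21.5% called higher and 22.6% called lower. A log2 unit is 2-fold, and 1 of 6 members was called with at least that difference, higher in SP, beside 17.6% of rows in either direction, 6.37% higher and 11.3% lower. The groups did not overlap for 2 of 6 members and for 49.0% of all rows. Counted in either direction, the share of members called was not above that of all rows. Counted as higher only, it was 2 of 6 (33.3%) beside 21.5% of rows. With at least 2-fold it was 1 of 6 (16.7%), *Stat2* alone, beside 6.37%. With 6 members such shares rest on 1 or 2 genes, and no excess over all rows is read from them. No member was called lower. With the arrays centred on their medians 4 members were called, all higher, beside 74.1% of rows. Without PBS replicate 2 also 4 were called, 2 higher and 2 lower, beside 36.4% of rows. The share in either direction thus stood below that of all rows in the former setting and above it in the latter.

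**Figure D1:**
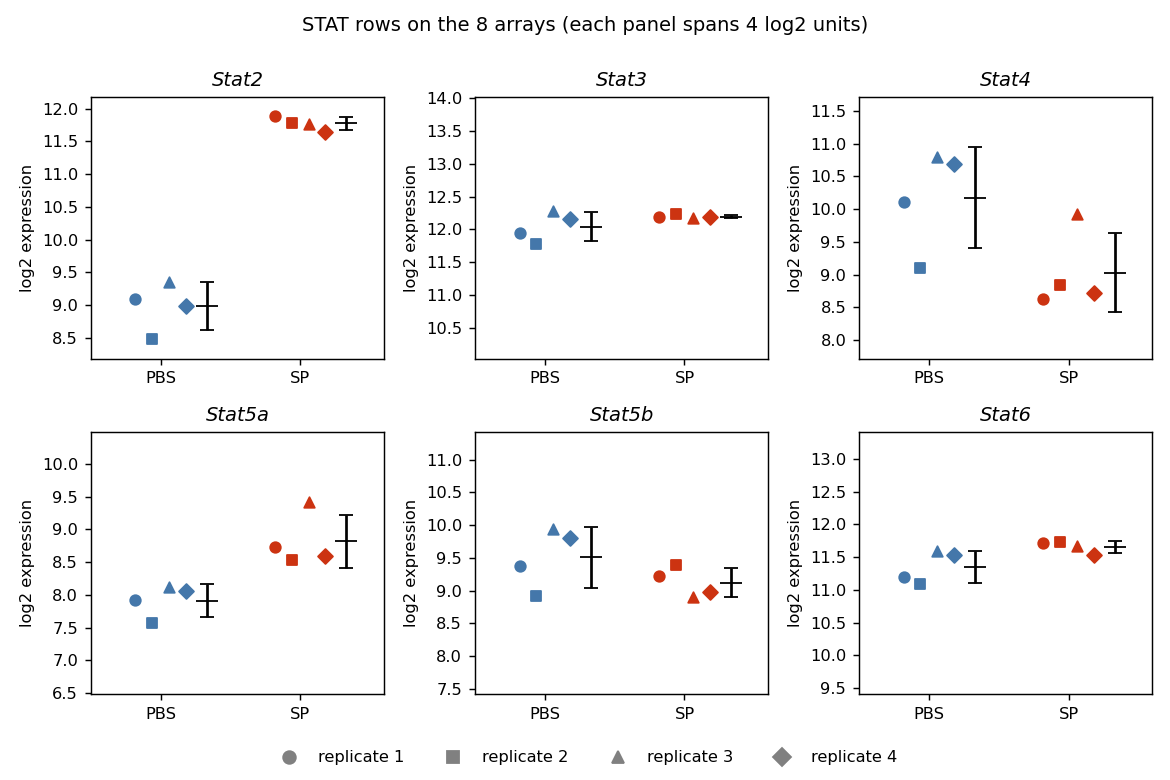
Log2 expression of the 6 STAT rows (vertical axis, each panel spanning 4 log2 units) in PBS and SP samples. Symbols mark the replicate, and black bars give the mean ± SD of 4 samples. *Stat2* and *Stat5a* do not overlap between the groups. *Stat4* reaches 9.92 in SP replicate 3 and falls to 9.11 in PBS replicate 2.

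The interferon partner *Stat2* (NM_019963) measured 9.10, 8.48, 9.36 and 8.99 in PBS replicates 1 to 4. It measured 11.89, 11.79, 11.77 and 11.65 in SP replicates 1 to 4. The SP samples were tightly grouped, all of them more than 2 log2 units above the highest PBS sample. The means were 8.98 ± 0.37 (SD, n = 4) in PBS and 11.77 ± 0.097 (SD, n = 4) in SP. The log2 difference was 2.79 (SE 0.17, 95% interval 2.40 to 3.19), a 6.93-fold higher level with a limma adjusted p of 1.35e-05. *Stat2* kept its call under all 16 alternative settings, with differences of 2.63 to 3.07.

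*Stat3* (NM_011486), the transducer of IL-6, IL-10 and granulocyte colony-stimulating factor, measured 11.95, 11.78, 12.28 and 12.16 in PBS replicates 1 to 4. In SP the values were 12.19, 12.23, 12.17 and 12.19. The SP samples lay inside the range of the PBS samples. The SD was 0.22 in PBS and 0.027 in SP (n = 4 each). The log2 difference of 0.15 (SE 0.11, 95% interval -0.10 to 0.41) did not pass the threshold (limma adjusted p = 0.266). Its sign was not settled by the scaling: the difference was 0.44 with arrays centred (adjusted p = 0.0198) and -0.091 after another quantile normalization (adjusted p = 0.393).

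*Stat4* (NM_011487) transmits IL-12 and, in some cells, type I interferon signals and is known mostly from T and NK cells. It measured 10.11, 9.11, 10.80 and 10.69 in PBS replicates 1 to 4 and 8.64, 8.83, 9.92 and 8.72 in SP replicates 1 to 4. In each group 1 sample lay on the side of the other group. PBS replicate 2 was lower than SP replicate 3, and without these samples the groups were separate. The means were 10.18 ± 0.78 (SD, n = 4) in PBS and 9.03 ± 0.60 (SD, n = 4) in SP, a log2 difference of -1.15 (SE 0.42, 95% interval -2.11 to -0.18) and a 2.21-fold lower mean. The unadjusted p was 0.0250 and the limma adjusted p was 0.0549, just short of the threshold. Leaving out PBS replicate 2 gave -1.50 (adjusted p = 0.0104), and leaving out SP replicate 3 gave -1.45 (adjusted p = 0.0203). With both left out, a choice made after seeing the data, the difference was -1.80 (adjusted p = 0.000423). The sign was negative under all 16 alternatives, with an adjusted p from 0.000423 to 0.128, and 7 of them called the gene.

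Markers of the lymphocytes in which *Stat4* is best known were compared with its values. The mean log2 level of 8 T cell markers was 5.39 to 6.03 in PBS and 5.60 to 6.72 in SP, with 2 of 8 higher and none lower. For 7 NK cell markers it was 5.11 to 5.36 in PBS and 5.09 to 5.60 in SP, none was called, and 2 lay at or below the level of Y-linked rows (4.33 to 4.90), which served as background in mice described as female. SP replicates 1, 2 and 4, which had the lower *Stat4* values, had T cell marker means of 6.49, 6.72 and 5.60 and NK cell marker means of 5.60, 5.58 and 5.09, the last of them below the PBS range. The T cell and NK cell marker means of SP replicate 3, where *Stat4* was high, were 5.62 and 5.17. PBS replicate 2, the low PBS sample of *Stat4*, had the lowest PBS means of both lists (5.39 and 5.11). It also had the lowest PBS means of the neutrophil (12.2), monocyte and interstitial macrophage (7.94) and eosinophil (5.23) lists. PBS replicate 3, the highest for *Stat4*, had 5.58 and 5.24, while PBS replicate 1 had the highest T and NK cell means (6.03 and 5.36). SP replicate 3, the high SP sample of *Stat4*, had the highest mean of 11 neutrophil markers (12.8, against 11.7 to 12.1 in the other SP samples and 12.2 to 12.5 in PBS). The part of the markers in the result was not tested.

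The paralogs *Stat5a* and *Stat5b*, which transmit signals of granulocyte-macrophage colony-stimulating factor, IL-2, IL-7 and growth hormone, differed from each other. *Stat5a* (NM_001164062) measured 7.92, 7.56, 8.12 and 8.05 in PBS replicates 1 to 4 and 8.73, 8.54, 9.41 and 8.60 in SP replicates 1 to 4. All SP samples were above all PBS samples, and SP replicate 3 was the highest. The means were 7.91 ± 0.25 (SD, n = 4) and 8.82 ± 0.40 (SD, n = 4), a log2 difference of 0.91 (SE 0.21, 95% interval 0.43 to 1.39) or 1.88-fold higher with a limma adjusted p of 0.00878. *Stat5a* was called under all 16 alternatives, at differences of 0.59 to 1.19. Its difference was 0.71 (adjusted p = 0.00540) without SP replicate 3, and 0.59 (adjusted p = 0.00211) without both that array and PBS replicate 2, so that the size of the rise rested partly on these samples.

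*Stat5b* (NM_001113563) measured 9.38, 8.92, 9.94 and 9.80 in PBS replicates 1 to 4 and 9.22, 9.39, 8.91 and 8.97 in SP replicates 1 to 4. The groups overlapped through PBS replicates 1 and 2. The means were 9.51 ± 0.46 (SD, n = 4) and 9.12 ± 0.22 (SD, n = 4). The log2 difference of -0.38 (SE 0.23, 95% interval -0.90 to 0.13) did not pass the threshold (limma adjusted p = 0.182), except without PBS replicate 2 (-0.58, adjusted p = 0.0334).

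The difference between the paralogs was tested within arrays, as the log2 value of the *Stat5a* row minus that of the *Stat5b* row. This quantity has no meaning as a level, since probes differ in brightness, but its change between groups does not depend on a shift of a whole array. It was -1.46, -1.35, -1.82 and -1.75 in PBS replicates 1 to 4 and -0.49, -0.85, 0.50 and -0.38 in SP replicates 1 to 4. All SP values were above all PBS values. The means were -1.59 ± 0.22 (SD, n = 4) in PBS and -0.30 ± 0.58 (SD, n = 4) in SP, a change of 1.29 (two-sided exact permutation p = 0.0286, the smallest that 70 arrangements allow). With 1 sample left out the change was 1.02 to 1.48, and all SP values stayed above all PBS values. The exact p was then 0.0571 without PBS replicate 3 or PBS replicate 4. It was 0.0286 with any of the other 6 samples left out, the smallest that 35 arrangements allow. In the RefSeq gene order *Stat5b*, *Stat5a* and *Stat3* are neighbouring genes on chromosome 11, *Stat2* and *Stat6* lie on chromosome 10, and *Stat4* on chromosome 1. The 3 neighbours on chromosome 11 thus had differences of -0.38, 0.91 and 0.15.

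*Stat6* (NM_009284), the transducer of IL-4 and IL-13, measured 11.20, 11.09, 11.59 and 11.53 in PBS replicates 1 to 4 and 11.71, 11.74, 11.67 and 11.53 in SP replicates 1 to 4. SP replicates 1, 2 and 3 lay above all PBS samples, and SP replicate 4 lay within their range. The means were 11.35 ± 0.25 (SD, n = 4) and 11.66 ± 0.092 (SD, n = 4), a log2 difference of 0.31 (SE 0.13, 95% interval 0.018 to 0.60) or 1.24-fold. It was not called (limma adjusted p = 0.0770), but was with arrays centred (0.59, adjusted p = 0.00909) and without PBS replicate 3 (0.39, adjusted p = 0.0423). After another quantile normalization the difference was 0.077 (adjusted p = 0.536).

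**Figure D2:**
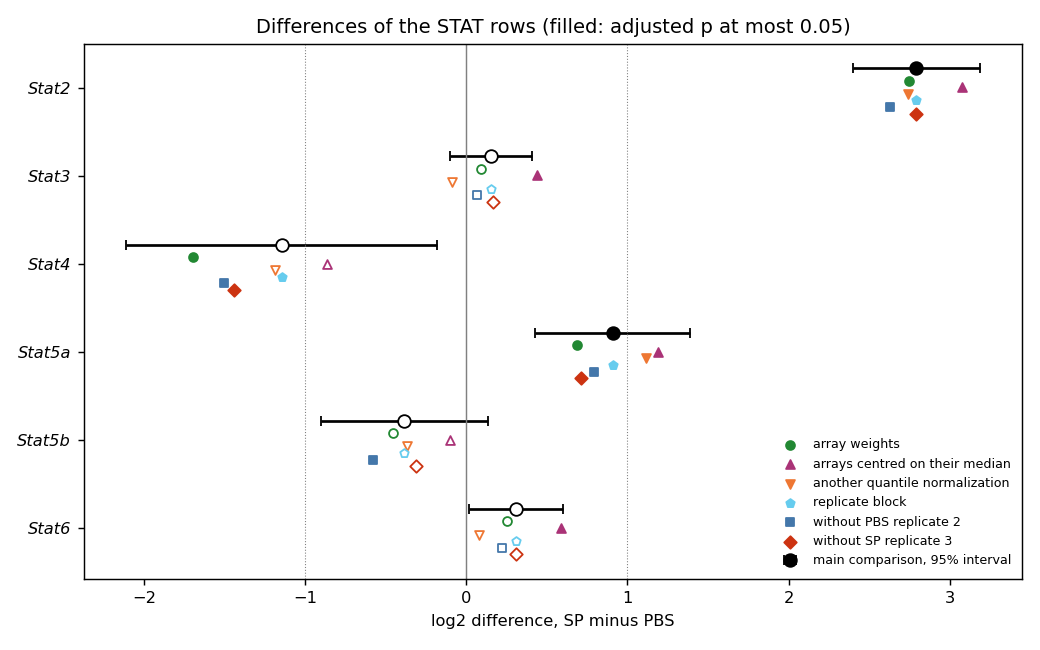
Log2 difference of SP minus PBS (horizontal axis) for each STAT row, with the 95% interval of the main comparison in black and the value under 6 alternative settings in colour. Filled symbols have an adjusted p of at most 0.05, and dotted lines mark 2-fold. *Stat2* and *Stat5a* are filled throughout, *Stat4* is filled under some settings, and *Stat3* lies on both sides of 0.

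The members shared a pattern among the PBS arrays. PBS replicate 2 was the lowest of the 4 PBS samples for all 6 members, with a mean deviation from the group mean of -0.51, and PBS replicate 3 was the highest for all 6, with a mean deviation of 0.35. Over all rows, PBS replicate 2 was lowest in 36.3% and PBS replicate 3 highest in 32.8%. Among SP arrays no such order was seen: SP replicate 3 was lowest for 2 members and highest for 2. The quality weights that limma estimates were lowest for SP replicate 3 (0.197) and PBS replicate 2 (0.464), against 0.722 to 2.69 for the others. PBS replicate 2 also had the highest PBS means of the ciliated cell, club cell, alveolar type 2, alveolar type 1 and endothelial marker lists. PBS replicate 3 had the lowest of the first 4 of these lists. The mean of the neutrophil markers was lowest in PBS replicate 2 (12.2) and highest in PBS replicate 3 (12.5). PBS replicates 1 (12.4) and 4 (12.3) lay between. The part of the markers in the order of the members was not tested.

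**Figure D3:**
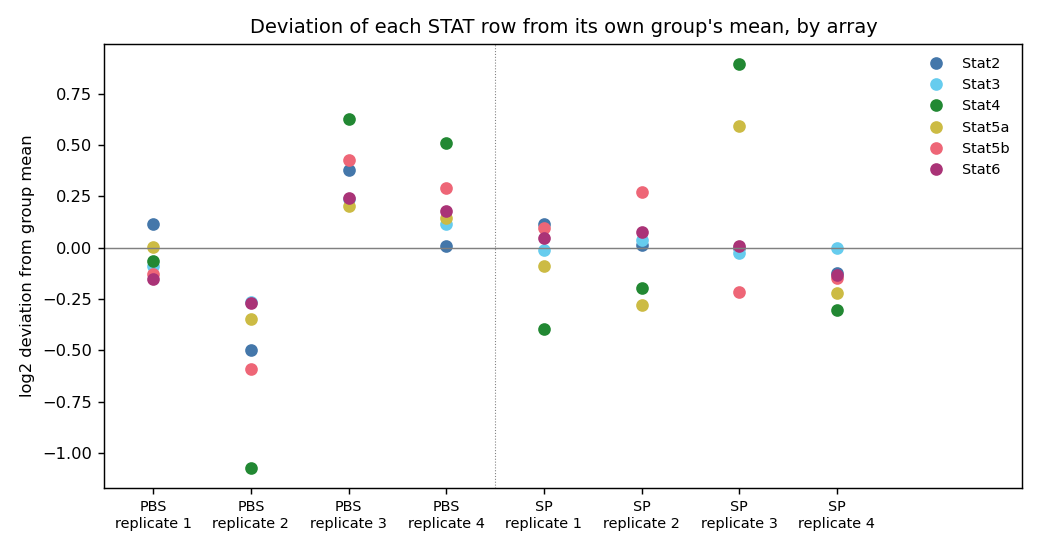
Deviation of each STAT row from the mean of its own group in log2 units (vertical axis) on each of the 8 arrays (horizontal axis). All 6 members lie below 0 on PBS replicate 2 and above 0 on PBS replicates 3 and 4. *Stat4* deviates most, by -1.07 on PBS replicate 2 and 0.89 on SP replicate 3.

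The preparations had the markers of their labelled cell. The mean of 11 neutrophil markers was 12.2 to 12.5 in PBS and 11.7 to 12.8 in SP, with 3 of 11 lower in SP and none at background. Markers of lung structural cells were also present, and most of those of epithelium and endothelium were lower in SP. All 6 ciliated cell markers (means 9.27 to 10.1 in PBS, 6.61 to 7.38 in SP), all 4 club cell markers (12.9 to 13.3, 10.8 to 11.5), 5 of 6 alveolar type 2, 4 of 6 alveolar type 1 and 5 of 7 endothelial markers fell. Of 6 fibroblast markers 2 fell, and their means overlapped (8.69 to 9.55 in PBS, 7.60 to 9.71 in SP). All 7 B cell markers fell (7.65 to 8.55 in PBS, 5.86 to 6.97 in SP). Of 6 alveolar macrophage markers, 3 fell and 1 rose (9.07 to 9.86, 8.43 to 8.999), and of 8 markers of monocytes and interstitial macrophages 3 rose and none fell (7.94 to 8.78, 8.08 to 9.42). Array medians were 6.06 to 6.20 in PBS and 5.78 to 5.91 in SP. Centring the arrays therefore added 0.28 to every difference, moved the median difference of all rows from 0.10 to 0.38 and the share of lower among called rows from 51.1% to 22.1%. What part these shifts have in the member values, beyond those given with arrays centred, was not tested.

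The rest of the pathway was described by 15 lists of receptors, kinases, inhibitors, ligands, partners and target genes, which share some genes. Of 145 listed genes 143 were measured, and 95 of them (66.4%) were called, beside 44.1% of all rows. Of the called genes 75 were higher and 20 lower in SP. The median log2 difference over the 143 measured genes was 0.51, beside 0.10 over all rows. The count of called genes was 77 to 117 under the alternatives. With rows above the median only, 84 of 116 listed genes (72.4%) were called, beside 60.3% of those rows. The lists were chosen with earlier results known, and no test of the lists was made.

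**Figure D4:**
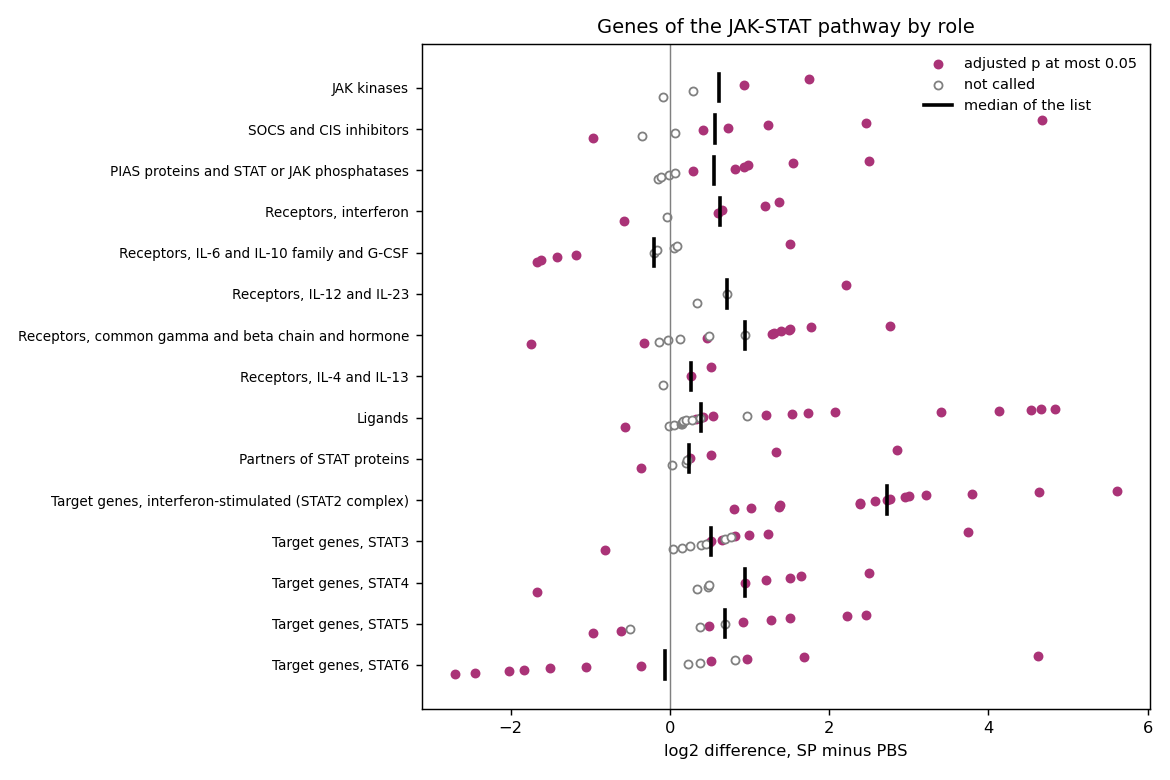
Log2 difference of SP minus PBS (horizontal axis) for each measured gene of the 15 pathway lists (rows). Filled points have an adjusted p of at most 0.05, open points were not called, and black bars are list medians. All 15 interferon-stimulated genes lie above 0, while the STAT6 target list spans -2.70 to 4.63.

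Among the 4 Janus kinases, 2 were higher in SP. *Jak2*, which serves interferon gamma, IL-12 and colony-stimulating factor receptors, measured 9.93 to 10.52 in PBS and 11.90 to 12.19 in SP, a log2 difference of 1.74 (limma adjusted p = 5.25e-05). *Tyk2*, the kinase of type I interferon and IL-12 receptors, measured 8.54 to 8.66 in PBS and 9.37 to 9.71 in SP, a difference of 0.94 (adjusted p = 9.78e-05). *Jak1* (0.29, adjusted p = 0.187) and the common gamma chain kinase *Jak3* (-0.09, adjusted p = 0.422) were not called.

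Negative regulators moved upward for the most part. Of 8 SOCS and CIS inhibitors 5 rose and 1 fell. *Socs1*, which blocks JAK activity at interferon receptors, measured 6.34, 5.51, 6.44 and 6.41 in PBS replicates 1 to 4 and 10.88, 11.17, 10.77 and 10.57 in SP replicates 1 to 4, a log2 difference of 4.67 (adjusted p = 4.79e-06). *Cish*, a STAT5 target that restrains STAT5, differed by 2.46 (adjusted p = 4.79e-06) and *Socs3*, the inhibitor of gp130 receptors, by 1.24 (adjusted p = 0.00358). Of 10 genes, made up of PIAS proteins, phosphatases and *Usp18*, 6 rose and none fell. They included *Usp18*, which limits interferon receptor signalling (2.50, adjusted p = 3.88e-06), *Pias4*, a SUMO ligase (1.55, adjusted p = 0.000288), and the phosphatase *Ptpn6* (0.98, adjusted p = 0.0159). The leukocyte phosphatase *Ptprc* was not called (-0.11, adjusted p = 0.588).

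Receptors were listed by cytokine family. Of 6 interferon receptor genes 4 rose and 1 fell, among the former *Il10rb* (1.37, adjusted p = 0.000300), *Ifnar1* (1.19, adjusted p = 0.000218) and *Ifngr2* (0.65, adjusted p = 0.00272). Of 9 receptors of the IL-6 and IL-10 families and granulocyte colony-stimulating factor 1 rose and 4 fell, with a median of -0.20 that turned to 0.077 when arrays were centred. The leptin receptor *Lepr* (-1.67, adjusted p = 0.00163) and the leukemia inhibitory factor receptor *Lifr* (-1.61, adjusted p = 0.00579) fell, and *Il10ra* rose (1.51, adjusted p = 0.0345). *Lepr* (8.86) and *Lifr* (10.00) were highest in PBS replicate 2, which also had the highest endothelial and epithelial marker means, and these markers fell in SP. Their part in the result was not tested. *Il10ra* lost its call under 7 alternatives, including each SP sample left out. *Csf3r*, the receptor of granulocyte colony-stimulating factor, was not called (-0.17, adjusted p = 0.255).

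Of 3 IL-12 and IL-23 receptors *Il12rb1* rose (2.21, adjusted p = 0.00588) from PBS values of 4.44 to 4.62 at background to 5.42 to 7.69, while *Il12rb2* was not called (0.35, adjusted p = 0.175). Of 15 receptors of the common gamma and beta chains and of hormones 8 rose and 2 fell. The IL-7 receptor *Il7r* (2.77, adjusted p = 0.000874) and the common gamma chain *Il2rg* (1.78, adjusted p = 6.11e-05) rose, and the growth hormone receptor *Ghr* fell (-1.75, adjusted p = 0.000384). The common beta chain *Csf2rb* (0.47, adjusted p = 0.0474) was lost under 10 of 16 alternatives. Of 3 receptors of IL-4 and IL-13 2 rose, *Il4ra* (0.52, adjusted p = 0.00671) and the decoy *Il13ra2* (0.26, adjusted p = 0.0145), which was lost without PBS replicate 1. *Il13ra2* measured 4.88 to 5.02 in PBS and 5.17 to 5.26 in SP, near the background level. *Il13ra1* was not called (-0.08, adjusted p = 0.665).

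Of 24 ligands measured 12 rose and 1 fell. The group means of 10 ligands were at or below the highest Y-linked value in both groups, and 2 of the 12 that rose, *Il22* (4.13 in PBS, 4.46 in SP) and *Il3* (4.47, 4.89), were among them. The Y-linked rows themselves differed by 0.12 to 0.19, and 1 of 3 was called higher. *Csf3*, the gene of granulocyte colony-stimulating factor, measured 4.30 to 4.63 in PBS and 8.21 to 10.27 in SP, a log2 difference of 4.83 (adjusted p = 3.45e-05), the PBS values lying at background. A log2 difference from background does not give the size of the change in RNA. *Il12a*, a subunit of IL-12, rose by 4.66 (adjusted p = 1.01e-05) and *Il10* by 4.53 (adjusted p = 0.00175). Oncostatin M, *Osm*, was not called (0.37, adjusted p = 0.173). Of 8 partners of STAT proteins 4 rose and 1 fell. *Irf9*, the DNA-binding partner of STAT2, measured 10.74, 9.92, 11.12 and 11.07 in PBS replicates 1 to 4 and 12.05, 12.11, 12.07 and 11.96 in SP replicates 1 to 4. All SP values were higher, with a difference of 1.33 (adjusted p = 0.00291), and PBS replicate 2 was the lowest of its group for *Irf9* as for *Stat2*. The STAT-interacting protein *Nmi* rose by 2.85 (adjusted p = 5.20e-06). The glucocorticoid receptor *Nr3c1* rose by 0.51 (adjusted p = 0.0393), a call lost under 9 of 16 alternatives, and *Jun* was not called (0.20, adjusted p = 0.0917).

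Known target genes were grouped by the STAT protein that they are best known for. All 15 interferon-stimulated genes of the STAT2 complex rose, 14 of them at least 2-fold, with a median log2 difference of 2.73. The antiviral genes *Ifit2* (5.61, adjusted p = 5.86e-07), *Mx2* (4.64, adjusted p = 8.50e-07) and *Ifit1* (3.80, adjusted p = 3.56e-05) had the largest differences, and *Trim30a* rose by 0.81 (adjusted p = 0.0277), which 4 alternatives did not call. *Mx2* measured 4.66 to 5.08 in PBS, about the background level. Of 15 STAT3 targets 7 rose and 1 fell (median 0.52). *Timp1*, a metalloproteinase inhibitor, rose by 3.74 (adjusted p = 9.67e-05) and *Cebpb*, a transcription factor of granulocytes, by 0.999 (adjusted p = 0.0382), a call that 10 of 16 alternatives lost, and the decoy receptor *Il1r2* was not called (0.39, adjusted p = 0.143).

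Of 9 STAT4 targets 5 rose and 1 fell (median 0.94). The kinase *Map3k8* (2.50, adjusted p = 7.38e-05) and the protease *Furin* (1.65, adjusted p = 0.000320) rose. The IL-18 receptor *Il18r1*, which measured 10.73 to 11.02 in PBS and 8.99 to 9.40 in SP, fell by 1.67 on the log2 scale (adjusted p = 1.55e-05). Of 11 STAT5 targets 6 rose and 2 fell (median 0.69). Beside *Cish*, the transcriptional repressor *Gfi1* (2.22, adjusted p = 0.000654) and the IL-2 receptor *Il2ra* (1.51, adjusted p = 0.000142) rose. *Gfi1* measured 4.82 to 5.03 in PBS, about the background level. Of 14 STAT6 targets 4 rose and 7 fell, with a median of -0.065 that was 0.22 with arrays centred. Arginase 1, *Arg1*, rose by 4.63 (adjusted p = 0.000140) from 4.67 to 4.94 in PBS, about the background level, to 8.16 to 10.73 in SP, and the macrophage lectins *Mrc1* (-2.70, adjusted p = 0.00448) and *Mgl2* (-2.45, adjusted p = 0.000295) fell. *Mrc1* and *Mgl2* are also genes of macrophages, whose markers are given above, and the part of these cells in the STAT6 list was not tested.

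The genes whose pattern over the 8 arrays was most like that of a member were found by the root mean square of the difference between row-centred log2 values, over 10886 rows with a symbol and a mean above the median of all rows. Nearest to *Stat2* were *Parp9* (0.124 log2 units), *Il18bp* (0.128) and *Tgif1* (0.136), with differences of 2.62 to 2.73. *Parp9* measured 8.29 to 9.19 in PBS and 11.30 to 11.64 in SP, the lowest PBS value being again replicate 2. Nearest to *Stat4* were *Haao* (0.192), *Ipcef1* (0.198) and *Nemp1* (0.211), all of which had lower means in SP and their highest SP value in replicate 3. The neighbours of *Stat5a* were *Pdcd10* (0.0788), *Gcc1* (0.0861) and *Chrm3* (0.0895).

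For *Stat3* they were *Rbm22* (0.0402), *Mtmr3* (0.0436) and *Ptp4a1* (0.0454). For *Stat5b* they were *Fam32a* (0.0703), *Pik3cd* (0.0884) and *Grk2* (0.0961). For *Stat6* they were *Btg1* (0.0461), *Tmem127* (0.0489) and *Kdm2a* (0.0506). Since likeness chose these genes, their values are a description only, and small distances go with members of small spread.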

How the data were processed

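Gene expression was profiled in 8 samples, 4 PBS and 4 SP, grouped and numbered by the sample titles. Per the labels and methods, the authors processed the arrays with Affymetrix Expression Console, RMA and Partek, by background correction, quantile normalization and median polish. The deposited values are log2 expression. Quantile normalization makes them relative within an array, and their precision is limited by the number of arrays. Rows were named through a table of RefSeq genes (GRCm38.p6), which matched 19915 of 24625 rows (80.9%). The build behind the deposited values is not given in the sources used here.

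All rows were compared with limma 3.58.1 (R 4.3.3) by lmFit and eBayes, two-sided, without covariates, with Benjamini-Hochberg adjustment. On simulated data limma recovered 68% of changes of 1 log2 unit and 94% of changes of 2 log2 units among 200 changed rows, with 14 false calls. The simulation drew rows independently and changed a far smaller share than the 44.1% of rows called here. Its rates therefore do not carry over to these data. The change of *Stat5a* against *Stat5b* was tested by exact permutation. Named were all members, the JAK kinases and *Irf9*, from each other pathway list the up to 3 called genes with the largest difference and the brightest gene, and 3 nearest rows of each member. Alternatives were the methods' t-test, a robust prior with intensity trend, array weights, the replicate number as a block, centred arrays, another quantile normalization, rows above the median only, and each sample left out. Members and lists were chosen with earlier results of these data known. Protein sequences and the microRNA arrays were not analysed here.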

Additional observations from a re-analysis of the deposited data

Results flagged for a closer look

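A sample stood far from the other 3 of its group in 14 of 148 groups tested (74 genes named, each in PBS and in SP), which is 9.46%, while chance flags about 1 in 20. The groups share arrays, and some genes were named for likeness to a member, so setting this share beside the chance rate is no test. Of the 14 flags 7 were on SP replicate 3, 4 on SP replicate 4, 2 on PBS replicate 1 and 1 on PBS replicate 2. *Stat4* was the only member among them, at 9.92 in SP replicate 3 against 8.64 to 8.83 in the other SP samples. On the same array *Socs3* measured 12.46 (others 12.11 to 12.13), *Osm* 12.59 (12.38 to 12.41), *Cebpb* 11.94 (11.50 to 11.54) and *Il7r* 8.59 (10.28 to 10.42). *Ipcef1* at 9.51 (8.66 to 8.79) and *Nemp1* at 8.67 (7.56 to 7.68) stood apart there too, but were named for their likeness to *Stat4*. On SP replicate 4 *Mrc1* was high at 8.40 (5.89 to 6.15), and *Il18bp* at 11.42 (11.85 to 11.87), *Mtmr3* at 10.89 (10.96 to 10.97) and *Kdm2a* at 10.38 (10.64 to 10.67) were low. *Il18bp*, *Mtmr3* and *Kdm2a* were named for their likeness to *Stat2*, *Stat3* and *Stat6*. On PBS replicate 1 *Mrc1* at 10.01 (9.10 to 9.13) and *Mgl2* at 7.95 (6.74 to 6.90) were high. On PBS replicate 2 *Socs1* was low at 5.51 (6.34 to 6.44).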

How the results depend on the processing

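*Stat2* and *Stat5a* kept their direction and call under every alternative run, and *Stat4* and *Stat5b* kept their negative sign. *Stat4* passed the threshold with a robust prior and intensity trend (-1.15, adjusted p = 0.0357), with rows above the median only (-1.15, adjusted p = 0.0343), with array weights (-1.69, adjusted p = 0.000977) and, in a set chosen after seeing the data, without PBS replicate 2 and SP replicate 3 (-1.80). With 1 sample left out it ranged from -1.50 to -0.94, *Stat5b* from -0.58 to -0.24, *Stat6* from 0.22 to 0.39, and the change of *Stat5a* against *Stat5b* from 1.02 to 1.48 (1.22 without PBS replicate 3, 1.24 without PBS replicate 4). Arrays centred on their medians gave 0.44 for *Stat3*, 0.59 for *Stat6*, 4 members and 18255 rows called (14219 higher, 4036 lower). Another quantile normalization gave -0.091 for *Stat3* and 0.077 for *Stat6*. The share of lower among rows called at least 2-fold, 63.9%, was 44.4% with arrays centred and 53.9% after that normalization. Members called with at least 2-fold numbered 2 instead of 1 under these scalings, where the second was *Stat5a*, higher (1.19 and 1.12). They also numbered 2 under array weights, the robust prior, the filter and the pair left out, where the second was *Stat4*, lower. With 1 sample left out they numbered 1 to 2, the second being *Stat4* or *Stat5a*, and members called at any size numbered 2 to 4. Replicate numbers did not pair the samples (correlations of same-numbered deviations 0.016, 0.030, 0.35 and -0.27). With the replicate block 9842 rows were called, *Stat4* was called (-1.15, adjusted p = 0.0268), 2 members were called at least 2-fold, and the *Stat5a* against *Stat5b* change of 1.29 had an exact p of 0.125, the smallest that 16 arrangements allow. Of 50 other named genes called, 42 kept sign and call throughout, 8 lost the call somewhere and 0 turned. No member had another row to try. The causes were not tested.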
